A study of Mus musculus with 12 samples.

Results

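Among 12 thymic lymphomas of mice, 5 tumours held almost no transcript of Rag1, which encodes a subunit of the V(D)J recombinase, and 7 tumours held abundant Rag1. The members were chosen by Rag1 itself, as its counts divided by the library total and scaled to a common depth (CPM). The 5 tumours below 10 CPM are called Rag1-low, and the 7 above 100 CPM are called Rag1-high. All 12 tumours fell into a class. The Rag1-low tumours were responders 4 to 8, and the Rag1-high tumours were responders 1 to 3 and non-responders 1 to 4. Because Rag1 was measured in the same libraries as every other gene, differences between the classes are described below without a test.

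The tumours were thymic lymphomas of C57BL/6 mice with the genotype p53neo/R172H;R26CreER/GNZ, which all 12 shared. In these mice weekly intraperitoneal tamoxifen switches on a Cre recombinase that restores wild-type p53 from the p53neo allele, while the other allele carries the R172H mutation. Every animal received tamoxifen, so no untreated tumour is among the 12. The 8 responders and 4 non-responders were named from growth or shrinkage on magnetic resonance imaging, and each tumour, taken after the last scan, gave 1 mRNA library of 20796860 to 30265753 counts. The labels give no age, batch or tumour content, and call the 12 independent biological samples.

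Developing T cells in the thymic cortex carry both CD4 and CD8 and recombine their receptor genes with RAG1 and RAG2, while terminal transferase (Dntt) adds bases at the joins and pre-T alpha (Ptcra) pairs with the beta chain. Innate-like T cells, such as invariant natural killer T (iNKT) cells and some gamma-delta T cells, leave that stage, switch on the transcription factor PLZF (Zbtb16) and carry receptors for inflammatory cytokines such as IL-18 (Il18r1) together with the chemokine receptor CXCR6. Mouse iNKT cells pair an invariant alpha chain with a small set of beta chains, of which the one encoded by Trbv13-2 (Vbeta8.2) is the best known.

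The beta-chain variable segment with the most counts was Trbv13-2 in 4 of the 5 Rag1-low tumours and in 0 of the 7 Rag1-high tumours, so the germline sequence of this segment is shown with those of its 2 closest relatives. The lines give the second exon of each segment, 294 bases on the plus strand of chromosome 6 in GENCODE M21 (GRCm38): chr6:41121539-41121832 for Trbv13-2, chr6:41116175-41116468 for Trbv13-1 and chr6:41130292-41130585 for Trbv13-3. Capitals in Trbv13-1 and Trbv13-3 mark bases that differ from Trbv13-2, and capitals in Trbv13-2 mark its 49 positions at which either relative differs.
Trbv13-2: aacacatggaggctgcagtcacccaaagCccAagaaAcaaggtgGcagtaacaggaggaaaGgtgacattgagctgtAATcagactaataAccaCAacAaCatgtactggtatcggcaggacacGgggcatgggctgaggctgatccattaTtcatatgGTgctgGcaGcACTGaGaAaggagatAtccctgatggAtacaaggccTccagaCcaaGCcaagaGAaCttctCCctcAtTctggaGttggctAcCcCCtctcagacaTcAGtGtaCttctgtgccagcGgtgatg
Trbv13-1: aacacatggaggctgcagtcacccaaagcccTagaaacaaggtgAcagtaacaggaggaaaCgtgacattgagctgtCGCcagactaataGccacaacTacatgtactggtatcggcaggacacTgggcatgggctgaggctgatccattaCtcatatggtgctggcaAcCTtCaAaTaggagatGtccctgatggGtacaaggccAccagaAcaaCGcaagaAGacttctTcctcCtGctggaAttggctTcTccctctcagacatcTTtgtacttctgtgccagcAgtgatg
Trbv13-3: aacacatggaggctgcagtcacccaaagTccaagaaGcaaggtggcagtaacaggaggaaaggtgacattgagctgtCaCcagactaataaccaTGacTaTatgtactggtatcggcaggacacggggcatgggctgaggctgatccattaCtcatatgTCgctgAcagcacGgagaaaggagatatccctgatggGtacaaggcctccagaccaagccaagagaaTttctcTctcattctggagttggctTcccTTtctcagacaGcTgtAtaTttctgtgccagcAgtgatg
Trbv13-1 differed from Trbv13-2 at 33 bases (88.8% identity) and Trbv13-3 at 24 bases (91.8% identity). Any stretch of 75 bases, the length of 1 read end, held at least 3 differences for Trbv13-1 and at least 2 for Trbv13-3. The treatment of reads that match more than 1 segment is not given in the sources used here, and shares of these 3 segments carry that uncertainty.

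Trbv13-2 took 82.1% of all Trbv counts in responder 4 (Wilson 95% interval 80.3 to 83.8, of 1840 counts), 97.6% in responder 5, 77.5% in responder 6 and 97.2% in responder 7. Responder 8, the remaining Rag1-low tumour, had 99.0% of its 12390 Trbv counts in Trbv16 and 0.621% in Trbv13-2. In the Rag1-high tumours Trbv13-2 took between 0.0101% (non-responder 1) and 24.4% (responder 3). Their leading segments were Trbv3 at 75.4% in responder 1, Trbv13-3 at 61.6% in responder 2, Trbv31 at 74.8% in responder 3, Trbv13-1 at 95.9% in non-responder 1 and Trbv19 at 47.8% in non-responder 3. Trbv5 led in non-responder 2 (98.3%) and in non-responder 4 (97.8%). Thus 4 of 5 tumours of 1 class shared their leading segment, against 2 of 7 in the other. The intervals cover counting error only, 20 Trbv segments were in the table, and a share of segment transcripts is not a count of clones. The level of Trbv13-2, scaled as described below, was 49.1, 115, 70.4, 132 and 3.05 CPM in responders 4 to 8. It was at most 40.3 CPM in a Rag1-high tumour (responder 3), so responders 3 and 4 lay closer in level than in share. Traj18, the joining segment of the invariant iNKT alpha chain, stood at 0.198 to 3.33 CPM in Rag1-low and 0.169 to 2.67 CPM in Rag1-high tumours, so the classes overlapped. Traj18 (chr14:54200777-54200842) is shorter than 1 read end of 75 bases, and its levels lay near the floor. The overlap therefore does not show whether the invariant chain was present or absent. Trav11, the partner of Traj18, was not analysed here.

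**Figure D1:**
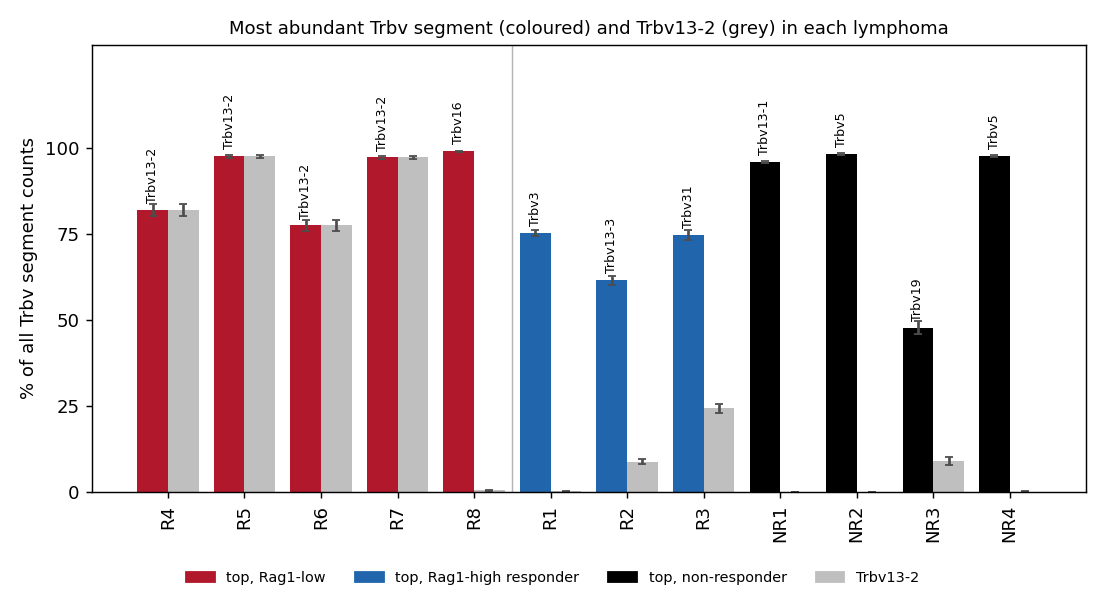
Share of all Trbv segment counts (y axis, %) taken by the most abundant segment (coloured, named above the bar) and by Trbv13-2 (grey) in each of 12 lymphomas (x axis; R, responder; NR, non-responder). Error bars are Wilson 95% intervals; Trbv13-2 is the leading segment in responders 4 to 7 and takes at most 24.4% in a Rag1-high tumour.

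The values that formed the classes lay far apart. Rag1 (chr2:101638282-101649501, minus strand, GRCm38) stood at 0.463 CPM in responder 4, 2.98 in responder 5, 0.593 in responder 6, 0.414 in responder 7 and 0.701 in responder 8, from 11 to 71 counts per library. It stood at 971, 1118 and 1181 CPM in responders 1 to 3, and at 1459, 165, 1776 and 1142 CPM in non-responders 1 to 4. Responder 5 at 2.98 CPM was the tumour just under the lower limit and non-responder 2 at 165 CPM the one just above the upper limit. The low class was therefore not empty of Rag1, and it is called low rather than negative. In whole tumours, fewer cells of a type and less RNA per cell cannot be told apart.

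All levels from here on are CPM after scaling by trimmed mean of M values (TMM), and differences are mean log2 CPM of Rag1-low minus Rag1-high tumours. A gene is called separated when its CPM did not overlap between the 5 and the 7 tumours and its class means differed by at least 1 on the log2 scale. Of 18612 genes tested, 835 were separated and higher in Rag1-low tumours (4.49%) and 580 were separated and higher in Rag1-high tumours (3.12%), together 1415 (7.6%). Rag1, whose separation the rule fixed, is 1 of the 580. Without the minimum difference, 989 genes were higher in Rag1-low tumours with no overlap (5.31%) and 1073 in Rag1-high tumours (5.77%), together 2062 (11.1%). Since Rag1 comes from the same libraries, these shares describe the contrast and serve as the background for each list below. The median difference over all genes tested was 0.05, and 52.9% of genes were higher in the Rag1-low mean. Spearman's rho between libraries, across genes, lay between 0.904 and 0.966 for the 10 pairs of Rag1-low tumours, between 0.926 and 0.971 for the 21 pairs of Rag1-high tumours and between 0.842 and 0.939 for the 35 pairs across classes.

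The other recombination genes followed Rag1, and none of their values overlapped between the classes. Dntt stood at 0.26, 1.06, 0.578, 1.08 and 0.476 CPM in responders 4 to 8, from 8 to 29 counts. In the Rag1-high tumours the lowest Dntt value was 19.1 CPM in non-responder 2, the median 580 and the highest 960 CPM in responder 2, a mean log2 difference of -9.03. Rag2, the recombinase partner that lies next to Rag1 (chr2:101624718-101632529, plus strand), had 1 to 3 counts in each Rag1-low library and 207 to 1158 counts in each Rag1-high library, or 10.1 to 44.3 CPM. Ptcra had 0 counts in responders 4, 6, 7 and 8 and 3 counts in responder 5, against 9.94 to 68.3 CPM in the Rag1-high tumours. Non-responder 2 was lowest of the Rag1-high tumours in Rag1, Rag2 and Dntt, and highest in Ptcra.

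**Figure D2:**
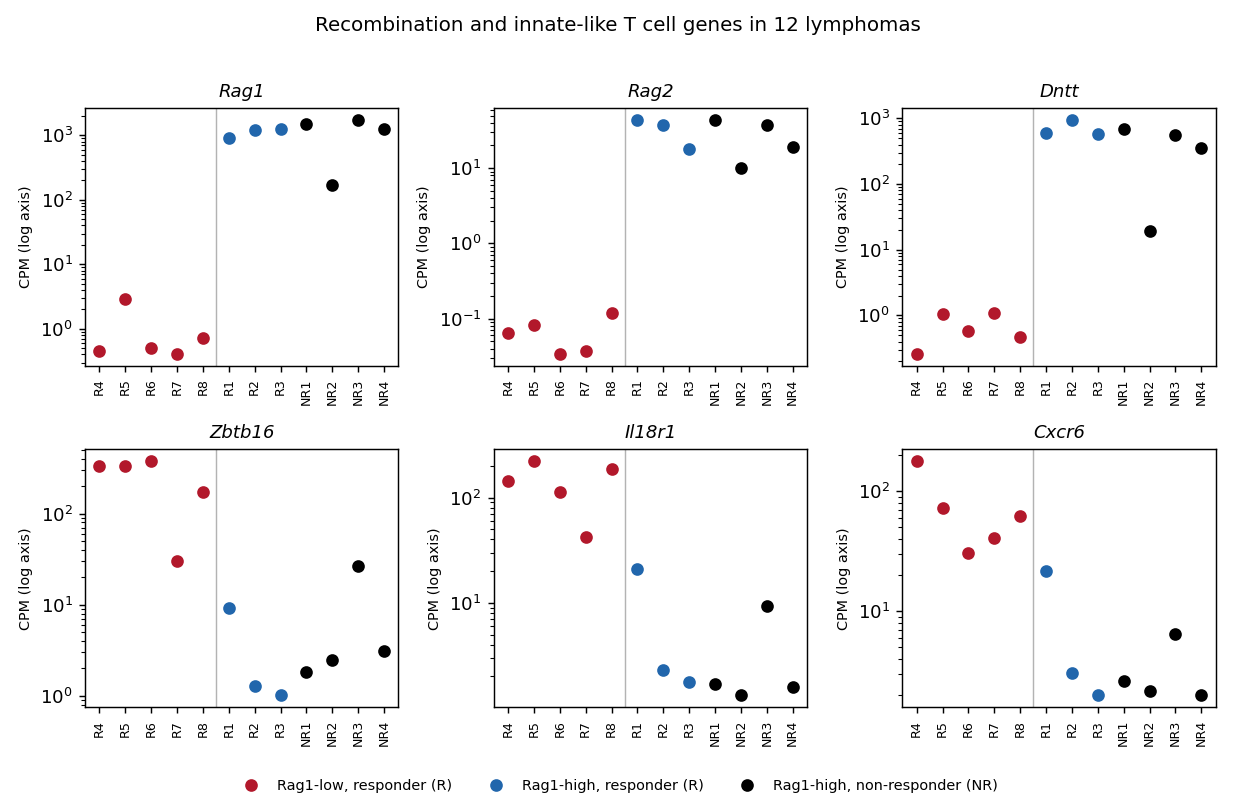
CPM on a log axis (y) of Rag1, Rag2, Dntt, Zbtb16, Il18r1 and Cxcr6 in each lymphoma (x axis), 1 point per tumour, red for Rag1-low, blue for Rag1-high responders and black for non-responders. The upper 3 genes are higher in every Rag1-high tumour, and the lower 3 are higher in every Rag1-low tumour; responder 1 holds the highest Rag1-high value of Il18r1 (21.0 CPM) and Cxcr6 (21.8 CPM) and non-responder 3 that of Zbtb16 (26.8 CPM).

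Since these 4 genes moved together, the 250 bases upstream of their starts are shown (RefSeq windows, GRCm38.p6), with the E-box letters CANNTG, the core bound by E proteins such as those of Tcf12 and Tcf3, in capitals. The windows are chr2:101649533-101649782 (minus strand) for Rag1, chr2:101624462-101624711 (plus) for Rag2, chr19:41029025-41029274 (plus) for Dntt and chr17:46763713-46763962 (minus) for Ptcra, each printed 5′ to 3′ along the gene.
Rag1: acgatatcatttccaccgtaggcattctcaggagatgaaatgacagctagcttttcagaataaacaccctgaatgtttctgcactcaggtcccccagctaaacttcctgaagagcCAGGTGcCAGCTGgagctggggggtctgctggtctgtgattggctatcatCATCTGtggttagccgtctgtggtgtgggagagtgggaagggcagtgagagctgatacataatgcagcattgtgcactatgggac
Rag2: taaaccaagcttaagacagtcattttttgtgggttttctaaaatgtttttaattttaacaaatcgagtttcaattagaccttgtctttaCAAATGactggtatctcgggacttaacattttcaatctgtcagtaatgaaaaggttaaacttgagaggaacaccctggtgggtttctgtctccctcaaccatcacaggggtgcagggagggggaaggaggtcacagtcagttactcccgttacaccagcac
Dntt: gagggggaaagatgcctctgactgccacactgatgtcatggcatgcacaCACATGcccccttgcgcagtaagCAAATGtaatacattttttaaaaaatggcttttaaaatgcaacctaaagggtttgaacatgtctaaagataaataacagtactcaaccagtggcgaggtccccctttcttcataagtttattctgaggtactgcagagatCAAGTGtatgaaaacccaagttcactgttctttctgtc
Ptcra: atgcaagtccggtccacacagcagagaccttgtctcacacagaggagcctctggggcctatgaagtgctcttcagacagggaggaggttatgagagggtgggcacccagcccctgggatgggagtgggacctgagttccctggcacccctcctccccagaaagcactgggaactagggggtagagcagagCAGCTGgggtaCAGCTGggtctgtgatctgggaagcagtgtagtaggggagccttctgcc
The motif reads the same on both strands. It occurred 3 times in the Rag1 and Dntt windows, 2 times in that of Ptcra and 1 time in that of Rag2, while 66.2% of 32817 windows of 250 bases held it at least 1 time and 12.2% held it 3 or more times. These matches are letters in a window, and binding was not measured. Of the E-protein genes Tcf12 and Tcf3, Tcf12 was separated and higher in Rag1-high tumours (370 to 617 CPM against 81.9 to 203), and Tcf3 overlapped (89.0 to 222 against 46.5 to 109). Whether E proteins had a part in the differences was not tested.

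Beyond the 3 recombination genes, 4 of 18 genes listed for cortical thymocytes were separated, all higher in Rag1-high tumours, and the list's median difference was -1.30. Arpp21, which encodes a cyclic-AMP-regulated phosphoprotein, showed the widest gap of the 18612 genes. It stood at 0.198 to 1.15 CPM in Rag1-low tumours and 151 to 563 CPM in Rag1-high tumours (log2 difference -9.44). Lef1, the HMG-box partner of TCF1, ranged from 55.2 to 71.6 CPM against 335 to 637 (-2.71), and Cd24a, a surface marker of immature thymocytes, from 22.0 to 92.1 against 143 to 482 (-2.42). Satb1, a chromatin organiser, differed by -1.76 with overlapping values.

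The coreceptor genes did not follow the recombination genes tumour by tumour. Cd8a stood at 14.0, 149, 5.54, 318 and 52.2 CPM in responders 4 to 8, and at 165 to 767 CPM in the Rag1-high tumours. Responder 7 thus lay inside the range of the Rag1-high class for Cd8a, while responders 4 and 6 were lowest of the 12. Cd8b1 had the same 2 lowest tumours, at 10.1 and 4.21 CPM. Cd4 overlapped widely, at 46.4 to 93.0 CPM in Rag1-low and 42.8 to 222 CPM in Rag1-high tumours. Cd5, a negative regulator of receptor signalling, leaned the other way with a difference of 1.38 (46.3 to 170 against 10.4 to 82.2 CPM). The name "cortical" for the Rag1-high class is therefore carried by Rag2, Dntt, Ptcra, Arpp21, Cd24a, Tcf12 and Lef1, and not by the other 14 members of the cortical list.

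Several genes with the widest gaps on the Rag1-high side are not known as parts of the recombination machinery. Arsi, an arylsulfatase gene, ranged from 1.02 to 2.20 CPM in Rag1-low and 118 to 410 CPM in Rag1-high tumours. Gfra1, which encodes a coreceptor for the neurotrophic factor GDNF, ranged from 0.0793 to 2.07 against 107 to 328 CPM, and Syt13, of the synaptotagmin family, from 1.37 to 1.92 against 77.1 to 218 CPM. H2-T3, the gene of the thymus leukaemia antigen, a nonclassical MHC class I molecule, had 2 to 7 counts per Rag1-low library and stood at 23.2 to 202 CPM in the Rag1-high tumours. Tnfrsf8, which encodes the lymphoma antigen CD30, ranged from 3.56 to 7.63 against 53.3 to 184 CPM. The 15 widest gaps on this side included Rag1 itself, Rag2, Dntt, Ptcra, Arpp21 and, described next, Lig4. The remaining genes of the 15 were Mum1l1, Aqp11, Wdr25 and Desi1, with log2 differences of -5.22, -5.21, -4.01 and -3.98.

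Lig4, the ligase that seals DNA ends in non-homologous end joining, was also among these 15. It stood at 6.53, 7.44, 4.96, 6.62 and 5.43 CPM in responders 4 to 8, and at 69.0 (responder 1) to 124 (responder 2) CPM in the Rag1-high tumours, with a median of 81.1 CPM and a log2 difference of -3.80. The list of 9 end-joining genes was drawn up after the values of Lig4 and Xrcc6 had been seen. Xrcc6, which encodes the Ku70 subunit that binds broken ends, ranged from 52.4 to 69.1 against 318 to 1264 CPM (-3.55), and Poll, which encodes the gap-filling polymerase lambda, was separated in the other direction (11.4 to 13.2 against 0.931 to 5.82 CPM). Of the other 6, Xrcc4, Xrcc5, Prkdc, Dclre1c, Nhej1 and Polm, none was separated, and Prkdc, the DNA-dependent protein kinase, differed by 0.06. Xrcc6 and Desi1 overlap over 41340 bases on opposite strands of chromosome 15, and no source used here gives the strand setting of the counting. Reads in the overlap therefore cannot be assigned between them.

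On the Rag1-low side, the 3 innate-like markers were separated. Zbtb16 (chr9:48654297-48836222, minus strand), the gene of PLZF, stood at 331, 336, 378, 30.0 and 173 CPM in responders 4 to 8. In the Rag1-high tumours it ranged from 1.01 CPM through a median of 2.45 to 26.8 CPM in non-responder 3, a log2 difference of 5.75. Responder 7 and non-responder 3 were therefore close neighbours in this gene, while the other 4 Rag1-low tumours lay far above. Il18r1, the binding chain of the IL-18 receptor, stood at 145, 222, 112, 42.5 and 186 CPM in responders 4 to 8, against 1.32 to 21.0 CPM (median 1.77) in the Rag1-high tumours (5.25). Cxcr6, a homing receptor of iNKT cells, stood at 179, 73.2, 30.5, 41.1 and 62.8 CPM against 1.995 to 21.8 CPM (median 2.61; 4.06).

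Of 20 cytokine, chemokine and killer receptors listed for innate-like T cells, 7 were separated and higher in Rag1-low tumours and 0 higher in Rag1-high tumours, with a median difference of 2.51. The 7 were Il18r1, Cxcr6, Il18rap, Il7r, Il12rb1, Cd160 and Icos. Il18rap, the signalling chain of the IL-18 receptor, ranged from 29.4 to 201 CPM against 0.504 to 18.6 (5.90). Il7r, the survival receptor of mature and memory T cells, ranged from 142 to 844 CPM in responders 7 and 8 and from 5.50 to 48.3 in Rag1-high tumours (3.67). Icos, a costimulatory receptor of activated T cells, ranged from 101 to 365 against 3.22 to 39.4 CPM (3.93). Il12rb2, the chain that makes the IL-12 receptor responsive to IL-12, leaned the other way (-1.37), and so did Il17rb, the IL-25 receptor (-0.60). Klrb1c, the gene of NK1.1, overlapped, at 0.515 to 14.9 against 0.0917 to 6.51 CPM.

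Of 11 innate-like transcription factors, 2 were separated, Zbtb16 and Eomes, with a list median of 1.39 that stood at 1.01 without responder 7. Of 13 effector genes of innate-like T cells tested, 9 had a higher Rag1-low mean, with a list median of 1.01. Transcripts of the cytokines Ifng, Il4 and Il17a were scarce in the Rag1-low tumours. Ifng reached at most 0.878 CPM, Il4 4.08 CPM and Il17a 1.53 CPM in a Rag1-low tumour, while Il13 was separated at 1.19 to 5.69 against 0.0421 to 0.602 CPM. Gzma, the gene of granzyme A, was separated in the other direction, with 3.19 to 42.5 CPM in Rag1-low and 74.1 to 245 CPM in Rag1-high tumours (-3.23). The adaptor and receptor genes of the SLAM family, through which iNKT cells are selected, were listed together with the CD1d genes, with a list median of -0.00. In that list 2 members were separated, the SLAM receptor gene Slamf1 and Cd1d2, both higher in Rag1-high tumours. Cd1d2 is annotated as a polymorphic pseudogene. The protein-coding CD1d gene, Cd1d1, overlapped, at 13.8 to 23.7 CPM in Rag1-low and 13.9 to 37.1 CPM in Rag1-high tumours (-0.29). Il13 and Gzma were the 2 separated genes of the effector list. Other effectors reached higher levels in Rag1-low tumours with overlapping values, such as Ccl5, a chemokine (at most 39.4 CPM), and Fasl, the death ligand (at most 33.0 CPM).

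Of the 15 widest gaps on the Rag1-low side, 1 was that of Il7r, given above, and most others belonged to genes outside those lists. Rnf43, which encodes a ubiquitin ligase that removes Wnt receptors, stood at 43.4, 50.5, 57.7, 48.2 and 85.5 CPM in responders 4 to 8 and at 1.94 to 9.15 CPM (median 3.08) in the Rag1-high tumours (3.83). Klk8, a serine protease gene of the kallikrein family, ranged from 33.0 to 63.3 against 0.196 to 6.81 CPM (4.84). Nes, the gene of the intermediate filament nestin, ranged from 27.5 to 126 against 1.86 to 5.82 CPM (4.10), and St14, which encodes the membrane protease matriptase, from 41.7 to 161 against 1.74 to 9.30 CPM (3.78). Ccr2, a chemokine receptor of monocytes and of some effector T cells, ranged from 201 to 710 against 5.68 to 50.7 CPM (4.41). Ltb, which encodes lymphotoxin beta, ranged from 125 to 262 against 7.39 to 42.6 CPM (3.49). Lyz1, a lysozyme gene, ranged from 39.4 to 74.1 against 3.04 to 13.7 CPM.

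Ccnd2 and Runx2 were among the same 15. Ccnd2, the gene of cyclin D2, which drives entry into the cell cycle, stood at 143, 328, 243, 519 and 202 CPM in responders 4 to 8, against 4.99 to 50.7 CPM in Rag1-high tumours (4.20). Ccnd3, the related cyclin D3 gene, was separated in the opposite direction, at 49.9 to 77.3 against 101 to 261 CPM (-1.26). Runx2, a transcription factor of the RUNX family, ranged from 8.46 to 43.0 against 0.441 to 1.96 CPM (3.90), and Runx1 was again opposite, at 20.2 to 48.4 against 86.8 to 281 CPM (-2.18). An antisense gene, Runx2os2, lies across 3704 bases of Runx2, so reads there cannot be assigned between the 2 genes. The third members overlapped, with log2 differences of 0.13 for Ccnd1 and 1.14 for Runx3. Beside Il7r, the remaining genes of the 15 were Zfp831, Qpct, Rgs5, Pacsin1 and Fam129a, with log2 differences of 4.47, 4.06, 2.77, 3.65 and 2.78.

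Genes of thymic maturation and egress leaned toward the Rag1-low class. Of 20 measured, 6 were separated and higher there (Ccr7, Gimap3, Gimap4, Gimap5, Gimap6 and Gimap8), 1 was higher in Rag1-high tumours (Klf3), and the median difference was 2.02. Gimap4, of a GTPase family of lymphocyte survival, stood at 190, 281, 238, 188 and 570 CPM in responders 4 to 8 and at 7.88 to 83.8 CPM in Rag1-high tumours. Ccr7, the receptor that guides mature thymocytes to the medulla, ranged from 27.4 to 116 against 3.72 to 25.2 CPM. S1pr1, the receptor for exit from the thymus, differed by 2.09 with overlapping values (24.3 to 103 against 6.28 to 30.7 CPM). In Gimap4, Ccr7 and S1pr1, responder 1 held the highest Rag1-high level.

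Notch receptors and their targets drive early T-cell development. Of 12 measured, 5 were separated and higher in the Rag1-high class and 1 in the Rag1-low class, with a median of -1.23. Notch1 stood at 104, 112, 128, 73.3 and 78.0 CPM in responders 4 to 8 and from 777 CPM in responder 1 to 6483 CPM in non-responder 1 (median 1494). Its target Dtx1, the gene of Deltex, ranged from 1.11 to 21.1 against 25.5 to 780 CPM (-5.07). Hes1, Heyl and Notch3 were the others, and Hey1, another target family member, was separated in the opposite direction (4.08 to 15.2 against 0.862 to 3.31 CPM). Of 13 T-lineage factors, Bcl11b, Runx1, Myb and Patz1 were separated, and all 4 were higher in Rag1-high tumours. Lck and Lat, the kinase and adaptor just below the T-cell receptor, were likewise higher there (-1.996 and -1.86), whereas Cd3d differed by 0.02, a sign that turned under scaling by relative log expression (RLE).

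**Figure D3:**
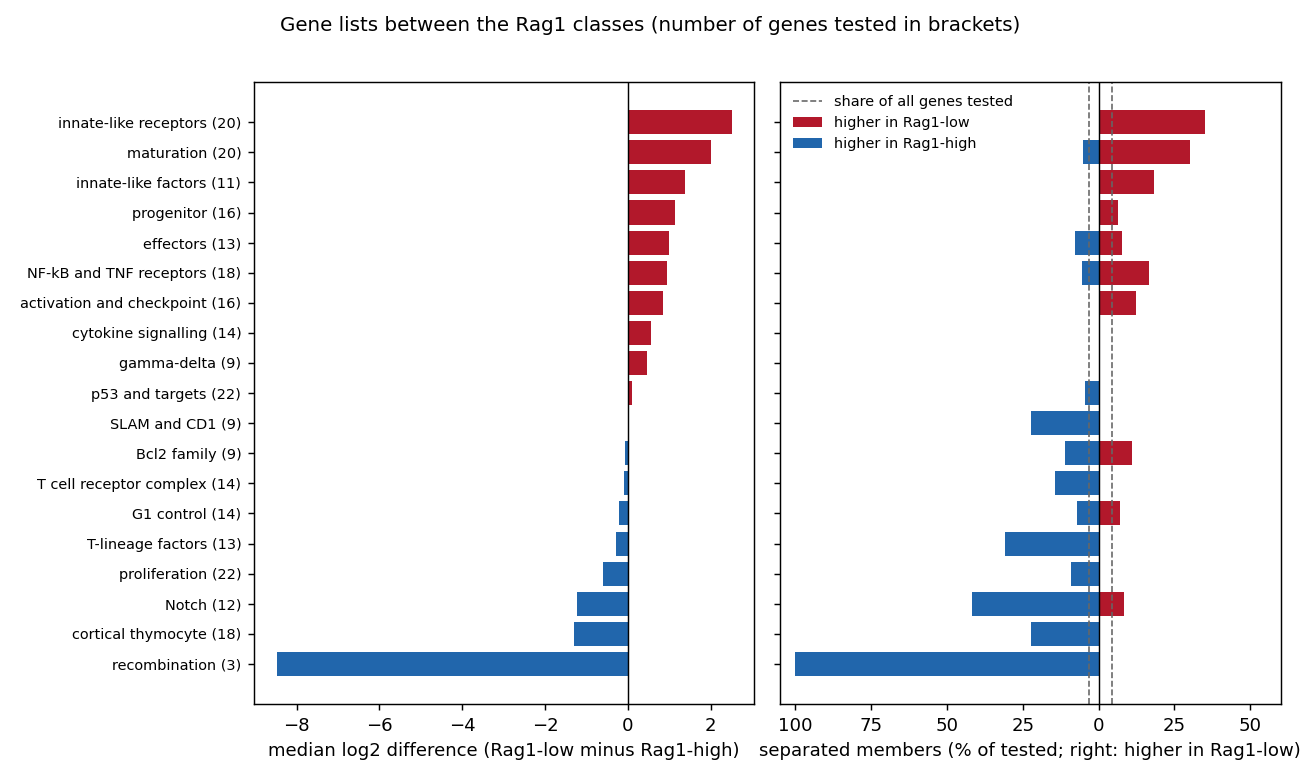
Left, median log2 difference (Rag1-low minus Rag1-high) of 19 lists of T-cell and tumour-cell genes, with the number of genes tested in brackets. Right, percentage of tested members that were separated, to the right of 0 where higher in Rag1-low and to the left where higher in Rag1-high tumours, with dashed lines at the shares over all genes (4.49% and 3.12%). Of these 19, the innate-like receptor list has the highest median (2.51) and the recombination list the lowest (-8.48).

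Signalling and cell-cycle lists moved less. Of 18 NF-kB and TNF-receptor genes, Relb, Traf1 and Tnfrsf18 were separated and higher in Rag1-low tumours, and Nfkbie, an inhibitor, was higher in Rag1-high tumours, with a median of 0.95. Relb, a subunit of the non-canonical pathway, ranged from 25.6 to 45.2 against 5.62 to 23.3 CPM (1.98). Of 16 activation and checkpoint genes, Egr3 and Nr4a3, both early-response factors of receptor signalling, were separated and higher in Rag1-low tumours, Egr3 at 3.38 to 14.97 against 0.0490 to 1.09 CPM. None of 14 cytokine signalling genes was separated. For proliferation, 21 of 22 genes had a lower mean in Rag1-low tumours, with a median of -0.60, yet 2 were separated, Ccne2 and Cdk1. Mki67, a marker of cycling cells, overlapped at 770 to 1675 against 959 to 2150 CPM.

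The p53 list, which bears on the treatment, differed little as a whole. Of 22 members 1 was separated, Btg2, an antiproliferative target, at 46.2 to 79.7 CPM in Rag1-low and 96.2 to 700 CPM in Rag1-high tumours (-1.82), and the list's median was 0.10. Trp53 itself stood at 51.6, 64.4, 56.1, 84.0 and 111 CPM in responders 4 to 8 and at 47.1 to 77.0 CPM in Rag1-high tumours, so the classes overlapped. The counts do not tell the restored allele from the mutant one. Bbc3, a p53 target that triggers apoptosis (PUMA), stood at 26.9, 22.7, 9.18, 13.8 and 8.76 CPM in responders 4 to 8, against 1.64 to 22.6 CPM (1.88). Its highest Rag1-high value was that of responder 1, and the other 6 lay at or below 5.87 CPM. Pmaip1, which encodes NOXA, differed by 1.46, Cdkn1a, which encodes p21, by 1.07, and Mdm2, which encodes the ligase that degrades p53, by -0.58, all with overlapping values. In the BCL2 family, Bcl2a1b was separated and higher in Rag1-low tumours and Bid, a proapoptotic member, was higher in Rag1-high tumours. Bcl2a1b has near-identical copies, so its counts are uncertain.

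The Rag1-low tumours differed among themselves. The following genes were chosen after their values had been seen, and the 5 tumours belong to 1 study group, so no test was made. Il23r, a receptor of IL-17-producing cells, was at 57.6 and 44.8 CPM in responders 4 and 5 and at 4.11, 4.47 and 1.70 CPM in the other 3. Maf and Rora, factors of IL-17-producing T cells, were also highest in those 2 tumours, Maf at 172, 128, 90.5, 28.3 and 20.9 CPM in responders 4 to 8 and Rora at 154, 145, 46.8, 15.9 and 15.02 CPM.

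Within the Rag1-low class, Eomes, Cxcr3 and Klrd1 were highest in responders 7 and 8. Eomes, a T-box factor of cytotoxic and memory T cells, stood at 4.52, 4.83, 11.1, 73.8 and 69.2 CPM in responders 4 to 8. Cxcr3, a chemokine receptor of such cells, was at 12.3, 16.2, 34.1, 168 and 164 CPM, and Klrd1, which encodes CD94, at 11.1, 5.56, 2.72, 32.9 and 131 CPM. Responder 6 lay between the 2 pairs in Maf, Rora, Eomes and Cxcr3. Tbx21, the gene of T-bet, ranged from 2.82 to 19.3 CPM. Other genes of natural killer and effector function did not share this order. Among the 5 Rag1-low tumours Klrk1 was highest in responder 4 (35.9 CPM) and Gzmb in responder 6 (10.4 CPM), and Ifng was at 0.878 CPM in responder 4 and 0.0793 CPM in responder 8. Responder 7 also held 521 CPM of Cd163l1, a scavenger receptor of gamma-delta T cells, against 1.30 to 29.4 CPM in the other 4. Its level of Tcrg-C1, a gamma-chain constant gene, was lowest of the 5 at 1.49 CPM, and no gamma-delta gene of 9 tested was separated between the classes.

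**Figure D4:**
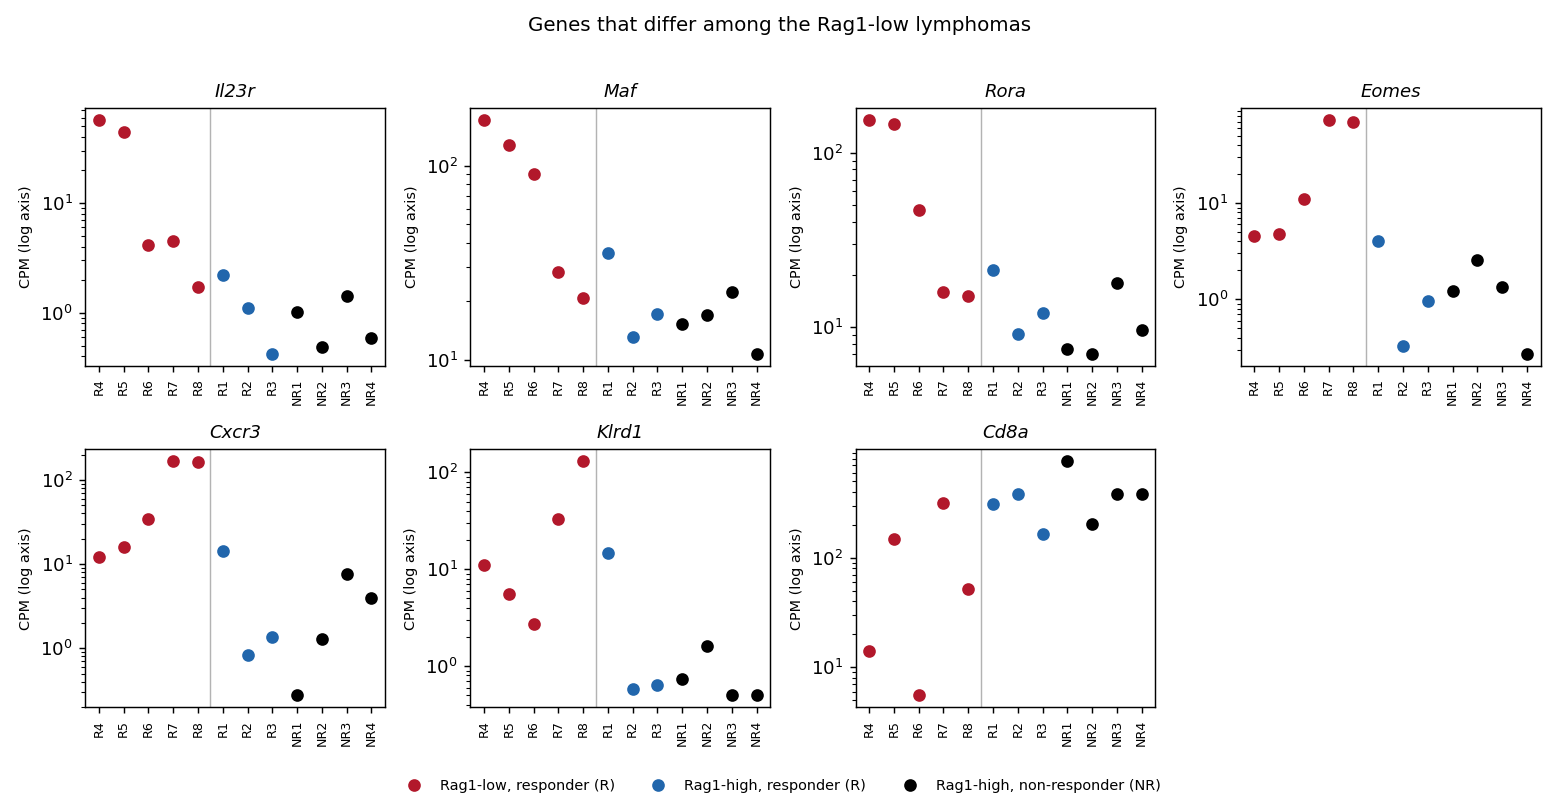
CPM on a log axis (y) of 7 genes in each lymphoma (x axis), 1 point per tumour, red for Rag1-low, blue for Rag1-high responders and black for non-responders. Il23r, Maf and Rora are highest in responders 4 and 5 within the Rag1-low class, and Eomes and Cxcr3 are highest in responders 7 and 8 (69.2 to 168 CPM).

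The Rag1-high class was not uniform either. Each Rag1-high tumour was placed on a scale set by the separated genes other than Rag1. The scale had 0 at the mean of the other Rag1-high tumours and 1 at the Rag1-low mean. The genes had been chosen with the placed tumour included, so in each of them it lay on the Rag1-high side. That choice limits how far toward 1 a tumour could stand. On the genes higher in Rag1-low tumours, responder 1 stood at 0.47 and the other 6 between -0.29 and 0.18. On the genes higher in Rag1-high tumours it stood at 0.21 and the others between -0.08 and 0.05. It likewise lay between the classes on the first principal component of log2 CPM, which held 46.2% of the variance. Responder 1 scored -22.3, against -131 to -54.2 in the Rag1-low tumours and 54.8 to 106 in the other 6. Without responder 1, 1703 genes were separated and higher in Rag1-low tumours in place of 835, and 745 were higher in Rag1-high tumours in place of 580. Its Dntt, at 608 CPM, lay above the median of its class.

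Most marker lists of other cell types leaned toward the Rag1-low class, while fibroblast markers leaned the other way (median -0.54). The part of these cells in the differences was not tested. Of 10 neutrophil markers all 10 had a higher mean in Rag1-low tumours, and 0 were separated; their summed level was 299, 496, 733, 114 and 30.9 CPM in responders 4 to 8 and 10.5 to 273 CPM in the Rag1-high tumours, highest in responder 1. The 8 red-cell markers summed to 140 to 2789 against 15.3 to 883 CPM, the 8 B-cell markers to 28.9 to 276 against 18.9 to 193 CPM, and the 8 adipocyte markers to 98.3 to 2883 against 93.4 to 515 CPM. The 9 dendritic-cell markers, with MHC class II, summed to 827 to 1873 against 150 to 2893 CPM, and the 10 macrophage markers to 1793 to 3021 against 846 to 3380 CPM. Responder 8 was lowest of the Rag1-low tumours in the first 4 of these sums, inside or near the range of non-responders. Its dendritic-cell sum of 827 CPM lay above that range (150 to 399 CPM), and its macrophage sum of 1911 CPM lay inside it (1095 to 3380 CPM).

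Thymic epithelial genes stood apart from the other marker lists, with Foxn1, Krt5 and Pax9 separated and higher in Rag1-low tumours. All 10 had a higher Rag1-low mean, and their sum was 178 to 259 against 16.4 to 171 CPM. Of 8 NK-cell markers 3 were tested, and all 3 had a higher Rag1-low mean, with a median of 0.37 and 0 separated. The 8 summed to 64.2 to 113 CPM in Rag1-low and 40.2 to 195 CPM in Rag1-high tumours. Ncr1, the defining NK receptor, was at 0.748 CPM or less in the Rag1-low tumours, 0 in responders 5 and 8, and the Ly49 receptor genes Klra4, Klra8 and Klra9 reached at most 1.98 CPM there. Vwf was the 1 endothelial gene of 8 separated toward Rag1-low tumours and Fbln1 the 1 fibroblast gene of 8 separated toward Rag1-high tumours. When responders 4, 5 and 6, the Rag1-low tumours richest in red-cell and neutrophil transcripts, were left out, 1030 genes were separated and higher in Rag1-low tumours, 614 of them among the 835. In the same setting 1002 were higher in Rag1-high tumours, 531 of them among the 580. Genes were filtered anew there, so a gene could leave the 835 by failing the filter. With the filter of all 12 tumours kept, 776 of the 835 and 531 of the 580 held a log2 difference of at least 1 without these tumours. Genes that did not overlap among 12 tumours keep their direction by construction when some are left out. The omission of responders 4 to 6 was chosen after the data had been seen.

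**Figure D5:**
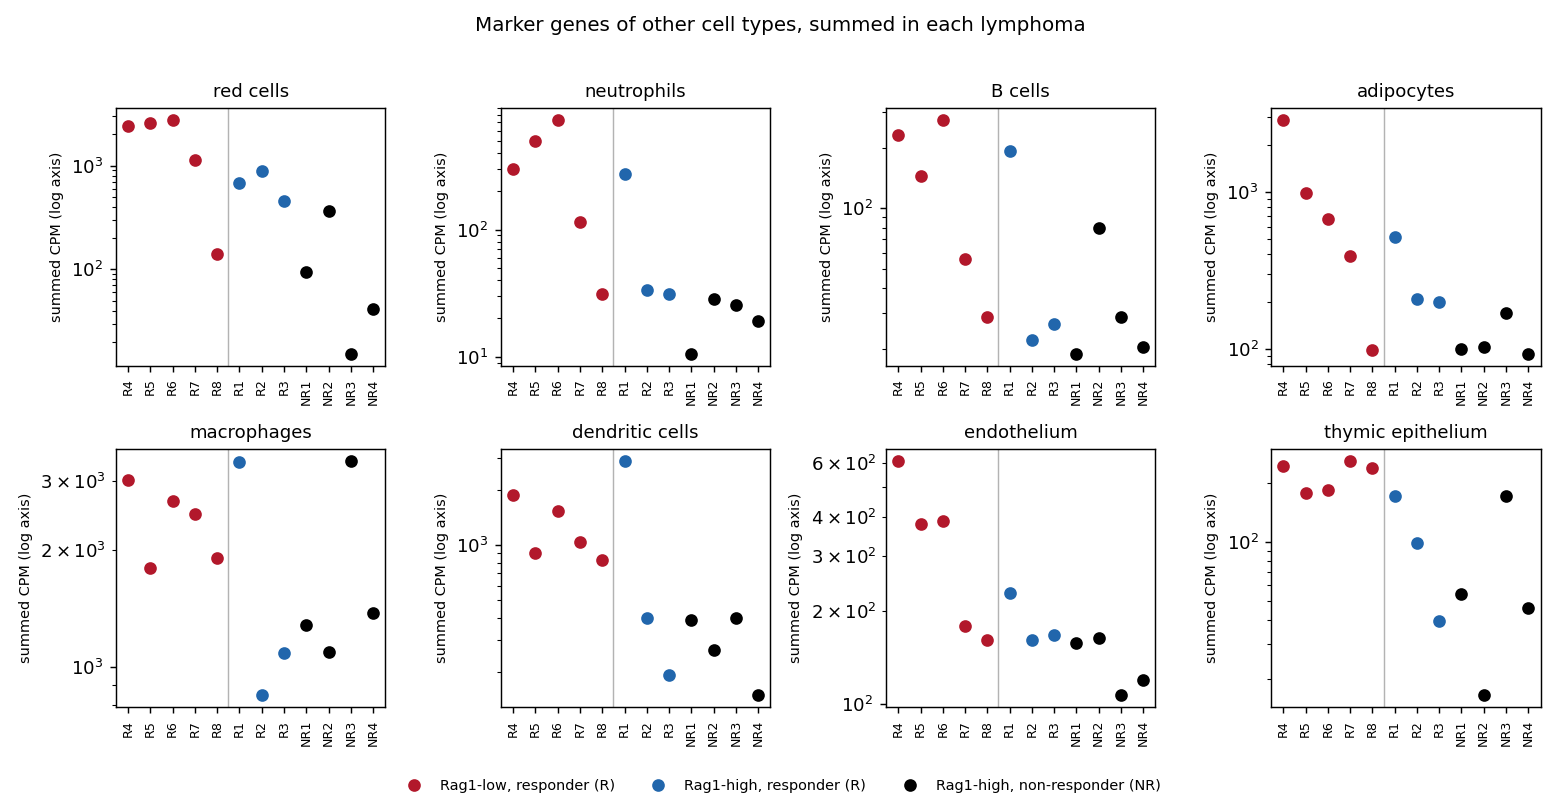
Summed CPM on a log axis (y) of marker genes of 8 other cell types in each lymphoma (x axis), 1 point per tumour, red for Rag1-low, blue for Rag1-high responders and black for non-responders. Responders 4 to 6 have the highest red-cell and neutrophil sums, responder 8 lies among the Rag1-high tumours in several panels, and responder 1 is the highest Rag1-high tumour for neutrophils (273 CPM).

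The response label was set by imaging and did not enter the rule. All 5 Rag1-low tumours were responders, against 3 of 7 Rag1-high tumours (Fisher's exact test, two-sided, p = 0.0808). The classes were proposed with earlier results of these data known, so this p describes these 12 tumours. Comparing all 4 non-responders with all 8 responders, edgeR's quasi-likelihood test called 0 of 18612 genes at a Benjamini-Hochberg adjusted p under 0.05 (0%; lowest adjusted p = 0.0786), and 4428 had an unadjusted p under 0.05. On the same genes limma-voom with quality weights called 1647 and DESeq2 called 2460. In this comparison 5 of the 8 responders, and no non-responder, were Rag1-low, so response and class cannot be told apart in it.

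Within the Rag1-high class the response comparison, 4 non-responders against responders 1 to 3, called 0 of 18612 genes in edgeR (0%; lowest adjusted p = 0.781), with 1182 at an unadjusted p under 0.05. There limma-voom called 0 and DESeq2 called 27, 14 of them higher in non-responders. The 2 response comparisons share responders 1 to 3 and the 4 non-responders, so their values are given side by side. Within the Rag1-high class, the log2 difference of non-responders minus responders was 1.16 for Zbtb16 (SE 1.10, edgeR adjusted p = 0.870) and -1.25 for Il18r1 (SE 0.91, edgeR adjusted p = 0.836). Ccnd2 stood at 32.5 ± 20.4 CPM in Rag1-high responders and 10.3 ± 6.84 in non-responders (-1.66, SE 0.60, edgeR adjusted p = 0.781). Over all 12 tumours the Ccnd2 response difference was -4.22 (SE 0.99, edgeR adjusted p = 0.117), against -1.66 with the class held fixed. Zbtb16 went from -4.20 over all tumours (SE 1.66, edgeR adjusted p = 0.157) to 1.16 within the Rag1-high class, and Rnf43 from -3.33 to -0.53. Ccnd2, Zbtb16 and Rnf43 were named for their difference between the classes, and every Rag1-low tumour was a responder. A change of this direction was thus largely set by that choice, and no conclusion is drawn from it. Trp53 differed by 0.15 (SE 0.26, edgeR adjusted p = 0.945) within the class.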

How the data were processed

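RNA was measured in 12 tumours, 1 library each. The authors deposited 1 table of whole-number, unnormalized counts for 37991 Ensembl genes. Per the submitters' processing notes, which name no versions, counting used HTSeq and the authors' own comparison used DESeq. The notes name the build NCBIM37 and the labels' protocols name mm10. Not given in the sources used here are the aligner and the strand setting. Libraries were TruSeq mRNA, 75-base paired-end, per the labels' protocols.

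Symbols were matched to GENCODE M21 (GRCm38) for 32919 identifiers, and the 5072 without one took 2.49% to 3.80% of counts. Classes used CPM of the column total. Genes were filtered with filterByExpr on the response groups (18612 kept) and scaled by TMM, with a prior count of 2 for log2 CPM. Of 392 members of 31 gene lists, 381 were in the table, and those below the filter were not tested. A further list, of 9 end-joining genes, was added later. Rag1, which formed the classes, counts among the separated genes and the widest gaps, and was left out of the position scale. The members and lists were chosen with earlier results of these data known. Genes named are the 6 markers, the 15 widest gaps per direction (log2 of the lowest CPM + 1 of the higher class minus that of the highest CPM + 1 of the lower class, without receptor segments, predicted genes and unnamed identifiers), list members by size of difference, and p53 genes. Separated list members beyond these were named after their values were seen. The values of 1 listed gene are not reported here.

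Response was tested with edgeR 4.0.16 (quasi-likelihood F test, two-sided, Benjamini-Hochberg) in R 4.3.3, over all 12 tumours and as a contrast in a fit of 3 groups (Rag1-low responder, Rag1-high responder, non-responder) that share 1 estimate of the spread. limma-voom 3.58.1 and DESeq2 1.42.0 were alternatives. On data simulated for the Rag1-high comparison over 18612 genes, edgeR recovered 32 of 50 genes changed 4-fold and 3 of 50 changed 2-fold. For the Rag1 classes the separation rule, also on simulated data, recovered 36 of 50 genes changed 4-fold, and 17 of 18412 genes left unchanged were called. Whether the 17 apply to the real classes, which were formed by a gene of the same libraries, was not tested. No 2 libraries were repeats (chi-square per degree of freedom at least 65.7 over 66 pairs).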

Additional observations from a re-analysis of the deposited data

Results flagged for a closer look

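Samples far from the others of their class were sought with Dixon's ratio in 82 groups of values, each holding 1 class's tumours for a marker or named gene, a list score (mean log2 CPM of the members) or the library total. It marked 10. Its limits mark about 1 in 20 groups by chance only for independent groups of normally distributed values. The groups here shared tumours and some held CPM without a log, so no chance rate is set beside the 10. Responder 1 accounted for 6 of the 10. Among the Rag1-high tumours it stood highest in Il18r1 (21.0 CPM, next 9.42), Cxcr6 (21.8 CPM, next 6.44), the innate-like receptor score (4.00, next 2.42), the effector score (4.31, next 0.93), the NF-kB and TNF-receptor score (5.01, next 4.37) and the dendritic-cell score (5.50, next 3.19). Gzmb stood at 182 CPM and Gzmk at 45.2 CPM in responder 1, and each at 0.392 CPM or less in the other 6 Rag1-high tumours.

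Non-responder 3 had 26.8 CPM of Zbtb16, where the other Rag1-high tumours had 1.01 to 9.19 CPM. Non-responder 2 had a recombination score of 4.57, below the 6.01 to 6.72 of its class. Responder 4 had the highest Cxcr6 of the Rag1-low tumours (179 CPM, next 73.2) and their lowest SLAM score (3.88, next 4.36).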

How the results depend on the processing

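The separation counts (835 and 580) stayed within 1.5 times under 3 other scalings (RLE, upper quartile, column total), without a filter, with 1 CPM required in 4 libraries and with a prior count of 0.5. With no minimum difference 1073 genes were higher in Rag1-high tumours, and with a minimum of 2 the counts were 463 and 282. Leaving out 1 tumour gave 797 to 1703 genes higher in Rag1-low and 610 to 745 higher in Rag1-high tumours; leaving out tumours relaxes the rule by construction. Of the settings added later, leaving out responders 4 to 6 gave 1002 higher in Rag1-high tumours, and leaving out responder 1 and non-responder 2 gave 1972 and 921. The response count over all tumours (0) was 2460 in DESeq2 and 1647 in limma-voom, and 0 to 5 without 1 tumour, namely 5 without responder 3, 3 without non-responder 1 and 1 without non-responder 3. Within the Rag1-high class it was 27 in DESeq2 and 0 to 1 without 1 tumour (1 without non-responder 1). The cause of these tool differences was not tested. Fisher's p stayed above 0.05 without each tumour in turn. Of 480 list medians recomputed, 478 moved by less than the spread between tumours; the recombination median was -9.18 with a prior count of 0.5 and that of the innate-like factors ranged from 1.01 to 1.63 when 1 tumour was left out (lowest without responder 7). Of 5970 values of named genes, 2 moved further (Rag2 and Ptcra with a prior count of 0.5), and no separated gene changed sign. Separated genes keep their direction by construction when a tumour is left out, so this is no measure of stability. Several genes that were not separated did change sign. Examples are Trp53 (0.10 to -0.06 without responder 8), Ccnd1 (0.13 to -0.17 without responder 5) and Cd163l1 (0.81 to -0.35 without responder 7). No paired analysis was possible because the labels give no replicate numbers. With under 10 counts in a library, as for Rag2 and Ptcra in Rag1-low tumours, depth limits any ratio.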
